A study of Caenorhabditis elegans with 24 samples.

Results

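irg-5 is an infection response gene of C. elegans, and it was described here together with irg-4 and with 5 dod genes, dod-17, dod-21, dod-22, dod-23 and dod-24. The 7 genes were taken by symbol out of 20447 genes counted, with irg-5 and dod-23 chosen by their higher RNA in noNSUN than in wild type, which earlier results of these data had shown. For that pair the genotype difference is therefore given without a test, and the question was whether the related genes shared it. The annotation bore out the family name for 6 of the 7, which RefSeq describes as CUB-like domain proteins. dod-23 carries no such description, and its coding sequence of 504 bases is shorter than the 1023 to 1083 bases of the other 6. Its identity with them was 29.3% to 31.5%, against 43.6% to 64.2% among those 6. Identity was counted over the whole alignment, gaps included, so that the shorter length of dod-23 by itself lowers its values.

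The animals were wild type, Bristol N2, or noNSUN, a quadruple mutant in which the alleles mj458 of nsun-2, mj457 of nsun-4 and mj473 of nsun-1 each change the catalytic cysteine to alanine and tm3898 deletes part of nsun-5. The wild type carries none of these alleles. Whole adults were kept at 20 °C or moved to 27 °C, a heat shock, and each lysate gave both an RNA-seq library of rRNA-depleted RNA and a ribosome profiling library of ribosome-protected fragments (RPFs), with 3 replicates per group and 24 libraries in all. In whole animals, fewer cells that express a gene and less RNA per cell cannot be told apart.

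CUB-like genes form a large nematode family of small secreted or membrane proteins, many of them made in the intestine and induced by bacterial infection. The intestinal p38 MAP kinase cascade (TIR-1, NSY-1, SEK-1, PMK-1) acts through the transcription factor ATF-7 on many of these genes, and GATA factors such as ELT-2 drive their intestinal expression. The dod genes were named as downstream of DAF-16, the FOXO factor of insulin signalling, and the dod genes described here belong to the class that is lowered in long-lived insulin receptor (daf-2) mutants.

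The 7 genes lie on chromosomes II, IV and V (genome build WBcel235). irg-5 (WBGene00009429) is on the minus strand of V, 13737010 to 13738474, with 7 exons, and dod-23 (WBGene00009898) on the minus strand of II, 8398161 to 8399164, with 3 exons. irg-4 (WBGene00008584) is on the plus strand of IV, 12435833 to 12438236. The other 4 lie within 41.6 kb of each other on IV: dod-21 (WBGene00007873) on the plus strand at 12936738 to 12937988, dod-24 (WBGene00007875) on the minus strand at 12940106 to 12941354, dod-22 (WBGene00010125) on the plus strand at 12965374 to 12967392 and dod-17 (WBGene00010745) on the plus strand at 12976303 to 12978343. Within that cluster dod-21 and dod-24 were the most alike in coding sequence (64.2% identity), followed by dod-17 and dod-22 (56.7%).

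The 12 RNA libraries held 1918731 to 3412334 counts and the 12 RPF libraries 22761 to 396184, so that 3 counts corresponded to 0.887 to 1.54 CPM (each count relative to the TMM-scaled total of the genes tested in its library) in RNA and to 10.2 to 181 CPM in RPFs. All 9 intestine markers examined were present in every group of RNA libraries, while markers of sperm summed to at most 1.43 CPM. The wild-type 20 °C replicate 1 stood apart: its 6 hypodermis markers summed to 969 CPM against 136 to 560 in the other 11 libraries. Of that sum dpy-13 gave 540 CPM and rol-6 274 CPM. For col-19 this library was lower, at 45.6 CPM, than wild-type 20 °C replicates 2 and 3 (85.5 and 84.8 CPM). The 6 neuron markers of this library summed to 613 against 323 to 457, and its 5 muscle markers to 10940 against 4928 to 6790. Its 8 germline markers summed to 5557 against at least 7678, and its 9 intestine markers to 19980 against at least 23260. The part of these sums in the results below was not tested. In each group replicate 1 had the highest hypodermis sum, and results that rest on it are given with and without it. nsun-5 RNA was 18.6 to 25.3 CPM in wild type and 10.6 to 13.4 CPM in noNSUN at 20 °C, while at 27 °C the genotypes overlapped (15.8 to 21.4 against 12.4 to 16.2 CPM). The alleles of the other 3 nsun genes cannot be checked from counts per gene.

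irg-5, which encodes an intestinal CUB-like protein widely used as a reporter of the p38 immune pathway, had 27.4, 43.9 and 51.7 CPM of RNA in wild-type replicates 1, 2 and 3 at 20 °C. In noNSUN at 20 °C it had 170, 164 and 167 CPM. Every noNSUN library was thus over 3 times the highest wild-type library, and the 3 noNSUN values were close together. At 27 °C its RNA was 25.8, 19.1 and 27.3 CPM in wild type. The noNSUN libraries at 27 °C held 132, 123 and 148 CPM, again far above wild type. The 4 groups did not overlap, in the order noNSUN at 20 °C, noNSUN at 27 °C, wild type at 20 °C and wild type at 27 °C, although the last pair were separated by less than 0.1 CPM (27.37 against 27.28). The fitted difference between the genotypes was 4.06-fold at 20 °C (log2 fold change 2.02, SE 0.19) and 5.58-fold at 27 °C (log2 fold change 2.48, SE 0.20). Wild-type 20 °C replicate 1 had the lowest irg-5 of its group, and without replicate 1 of each group these log2 values were 1.78 and 2.57. That library also had the lowest sum of intestine markers, in which the most abundant markers weigh most. At 20 °C the mean sum was lower in wild type than in noNSUN (28910 against 32140 CPM), although only 1 of the 9 markers had a log2 fold change above 0. The part of this sum in the irg-5 level was not tested.

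**Figure D1:**
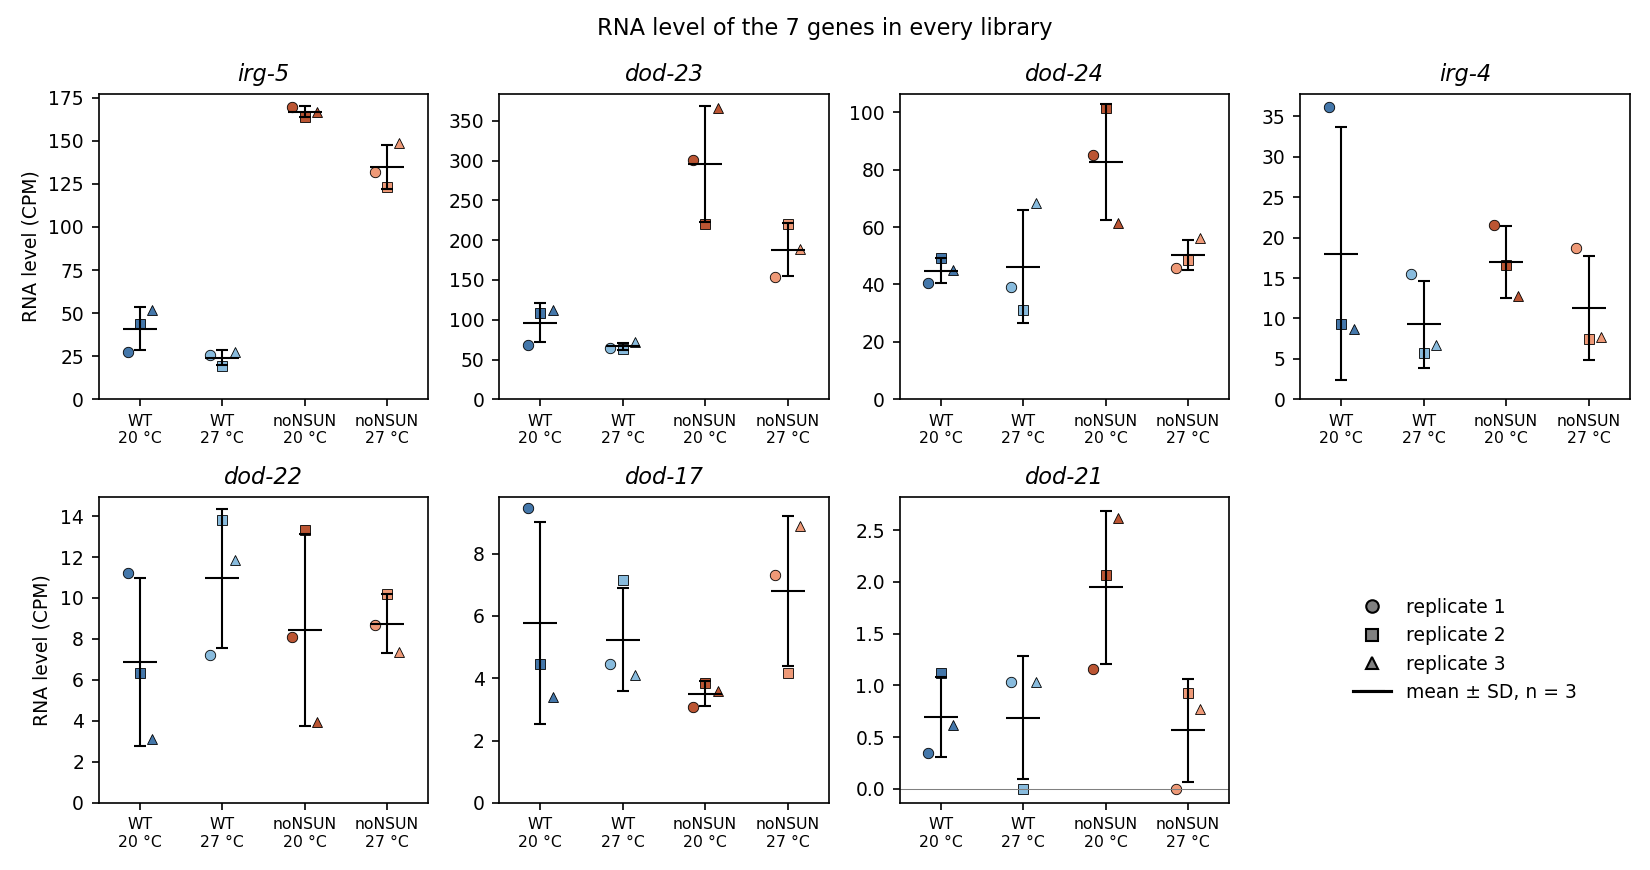
RNA level of each of the 7 genes in CPM (y axis, each panel on its own scale from 0) in the 4 groups, with 1 point per library, shaped by replicate number, and the mean ± SD of 3 replicates. irg-5 and dod-23 are above every wild-type library in all noNSUN libraries. dod-24 and dod-21, the latter near the floor, are higher in noNSUN only at 20 °C, against the wild type kept at 20 °C. irg-4, dod-22 and dod-17 overlap between the genotypes at both temperatures.

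dod-23, whose RefSeq product name gives no domain, followed the same order. Its RNA was 68.8, 109 and 112 CPM in wild type at 20 °C. In noNSUN at 20 °C it was 301, 220 and 366 CPM. At 27 °C it was 64.6, 63.4 and 72.1 CPM in wild type. The noNSUN libraries at 27 °C had 154, 220 and 190 CPM. At each temperature all noNSUN libraries exceeded all wild-type libraries, as for 4.37% of the 10815 genes tested at 20 °C and 4.62% at 27 °C, from which nothing is read since the choice used this contrast, while the 2 temperatures overlapped within each genotype. The genotype difference was 3.06-fold at 20 °C (log2 fold change 1.62, SE 0.21) and 2.82-fold at 27 °C (log2 fold change 1.497, SE 0.22). Per kb of exon, dod-23 was the most abundant of the 7 genes, with a mean of 218 CPM per kb over the 12 RNA libraries, at the 96.3rd percentile of the genes tested, and irg-5 came next with 82.0 CPM per kb.

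The 200 bases before the annotated start of irg-5 and of dod-23, from the RefSeq genome sequence of WBcel235, are shown because these genes moved together. Capitals mark TGATAA on either strand, which factors such as ELT-2 can bind. irg-5 (chrV:13738475-13738674, minus strand) has 1 match, 134 bases before the start, and dod-23 (chrII:8399165-8399364, minus strand) has none.
irg-5: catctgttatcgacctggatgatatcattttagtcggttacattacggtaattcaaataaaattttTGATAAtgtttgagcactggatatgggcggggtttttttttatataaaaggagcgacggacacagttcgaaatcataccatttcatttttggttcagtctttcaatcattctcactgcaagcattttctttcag
dod-23: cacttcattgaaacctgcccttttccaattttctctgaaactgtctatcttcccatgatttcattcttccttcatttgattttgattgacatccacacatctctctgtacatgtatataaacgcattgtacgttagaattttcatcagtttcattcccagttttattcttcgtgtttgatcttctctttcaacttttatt
TGATAA was present in 5 of the 7 windows and in 22.6% of 19973 windows of the same length before all genes, and its extension CTTATCA, which holds TGATAA on the other strand, in 2 of 7 and in 7.07%. The matches were in irg-5, irg-4, dod-17, dod-21 and dod-24, so that the gene pair with the higher RNA in noNSUN was split by this motif. GTAAACA, bound by DAF-16, and the cyclic AMP response element TGACGTCA were found in none of the 7 windows, against 3.47% and 0.941% of all windows, both strands searched. The heat-shock element, also in none of the 7, was in 1.24% of all.

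The other 5 genes were then compared between the genotypes. Of these, 4 passed the filter on low counts in RNA, and edgeR called none of the 4 at an adjusted p under 0.05 at 20 °C, where it called 0.0832% of 10815 genes, and none at 27 °C, where it called 0.0277%. At an unadjusted p under 0.05 there was 1 at 20 °C, dod-24, and 0 at 27 °C, and DESeq2 gave the same counts of members while calling 0.166% and 0.0925% of all genes. At 27 °C, however, DESeq2 gave no adjusted p for irg-4, dod-22 and dod-17, so that it could have called only dod-24. The median log2 fold change of all genes tested was -0.02 at 20 °C and -0.01 at 27 °C.

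dod-24, a CUB-like gene of the chromosome IV cluster, came nearest to irg-5 and dod-23. Its RNA was 40.4, 49.1 and 44.9 CPM in wild type at 20 °C, against 85.1, 101 and 61.5 CPM in noNSUN. All 3 noNSUN libraries were above all 3 wild-type libraries, a separation in this direction that 4.37% of genes tested showed. The difference was 1.85-fold (log2 fold change 0.89, SE 0.24, 95% interval 0.36 to 1.41, edgeR adjusted p = 0.588). With the replicate number as a block it was called (log2 fold change 0.89, adjusted p = 0.0335), in a fit that called 1.48% of genes, and likewise without replicate 1 of each group (0.81, adjusted p = 0.0189, 1.44% of genes called). At 27 °C dod-24 had 39.2, 31.0 and 68.5 CPM in wild type against 45.8, 48.7 and 56.1 CPM in noNSUN. The genotypes then overlapped, with a log2 fold change of 0.13 (95% interval -0.42 to 0.68).

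irg-4, a CUB-like infection response gene that depends on the p38 cascade, overlapped between the genotypes at both temperatures. At 20 °C its RNA was 36.1, 9.29 and 8.67 CPM in wild type, while the noNSUN libraries held 21.6, 16.6 and 12.76 CPM. The wild-type replicate 1, the library with high sums of hypodermis and neuron markers, was by far the highest of these 6. The log2 fold change was -0.09 (95% interval -1.25 to 1.07), and 0.91 (edgeR adjusted p = 0.819) without that library; the part of those markers in it was not tested. At 27 °C irg-4 had 15.5, 5.72 and 6.69 CPM in wild type against 18.8, 7.42 and 7.74 CPM in the mutant, a log2 fold change of 0.22 (95% interval -1.09 to 1.53). In both genotypes replicate 1 was the highest at 27 °C as well.

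dod-22, a CUB-like gene known to respond to bacterial infection, had at 20 °C 11.2, 6.32 and 3.10 CPM in wild type against 8.09, 13.3 and 3.93 CPM in noNSUN. dod-17, also CUB-like, had 9.48, 4.46 and 3.41 CPM in wild type against 3.08, 3.84 and 3.60 CPM in noNSUN. For both genes the genotypes overlapped at 20 °C. The log2 fold changes were 0.32 for dod-22 (95% interval -0.71 to 1.34) and -0.70 for dod-17 (95% interval -1.62 to 0.23). Both genes were highest in wild-type 20 °C replicate 1 among the 3 wild-type libraries, and without it the values were 0.88 for dod-22 and -0.14 for dod-17, neither of them called. At 27 °C dod-22 had 7.21, 13.8 and 11.84 CPM in wild type against 8.70, 10.2 and 7.35 CPM in noNSUN. There dod-17 had 4.47, 7.15 and 4.12 CPM in wild type against 7.33, 4.17 and 8.90 CPM in noNSUN. The differences at 27 °C were -0.31 for dod-22 (95% interval -1.34 to 0.72) and 0.39 for dod-17 (95% interval -0.53 to 1.31).

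dod-21 could not be read with the same certainty. It lies 466 bases from cld-1 (WBGene00007872, minus strand, chrIV:12935011-12936271), another CUB-like gene in the opposite orientation. The annotated coding sequence of cld-1 is 1107 bases long and starts further upstream than that of dod-21, 1083 bases. Over the 1083 bases that they share, compared from the stop codon back, the pair differ at a single base, A504G (dod-21 base first, positions from 1 at the A of the dod-21 start codon). The windows around it, coding bases 477 to 531 counted along dod-21, are shown because within this shared stretch only a read that covers the capital can be assigned to one gene.
dod-21: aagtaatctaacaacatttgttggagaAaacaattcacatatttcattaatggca
cld-1: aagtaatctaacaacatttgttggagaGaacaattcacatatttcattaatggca
Only 2.79% of the 28-base stretches within exons of dod-21's coding sequence, about the length of a footprint, occur once in the genome, and 12.7% of the 100-base stretches, against at least 95.4% of 28-base stretches in each of the other 6 genes. Few RNA reads were counted for dod-21: at 20 °C 1, 3 and 2 in wild type against 3, 7 and 8 in the mutant, then 3, 0 and 2 against 0, 2 and 2 at 27 °C. cld-1 had 4, 11 and 21 RNA counts in wild type against 23, 44 and 20 in the mutant at 20 °C, then 9, 2 and 10 against 9, 12 and 14 at 27 °C. Both genes had their highest group mean in noNSUN at 20 °C.

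The sum of dod-21 and cld-1, an analysis chosen after the copy was seen, was at 20 °C 1.75, 5.203 and 7.12 CPM in wild type against 10.01, 15.1 and 9.16 CPM in noNSUN. The noNSUN libraries were all above the wild-type libraries, as for 4.37% of genes tested, with a log2 fold change of 1.27 (SE 0.48, edgeR unadjusted p = 0.0204, adjusted p = 0.937; with the replicate number as a block, unadjusted p = 0.00381 and adjusted p = 0.124). At 27 °C the sums were 4.12, 0.953 and 6.18 CPM in wild type against 4.12, 6.49 and 6.19 CPM in noNSUN. The genotypes overlapped there, as they did for dod-24.

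irg-5 itself has close CUB-like neighbours on chromosome V, and these gave a direct comparison by position. Within 20 kb there are 6 other CUB-like genes, 5 of which passed the filter. F35E12.6, 0.763 kb away on the same strand, had a wild-type mean of 44.6 CPM at 20 °C, close to the 41.0 CPM of irg-5, and 52.5 CPM in noNSUN, where irg-5 had 167 CPM. Over the 5 neighbours the log2 fold changes between the genotypes at 20 °C ran from -0.01 to 0.53, and those at 27 °C from -0.35 to 0.10. None of the 5 was called at either temperature by edgeR, which called 0.0832% of all genes at 20 °C and 0.0277% at 27 °C. In the chromosome IV cluster, which holds 11 CUB-like genes with cld-1 and the 4 members, the 3 non-members tested ranged from -0.33 to 1.22 at 20 °C, cld-1 being the highest.

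Across the whole family, RefSeq describes 48 of the genes counted as CUB-like, the 6 members and 42 others, of which 26 passed the filter. Of these 26, edgeR called none between the genotypes (0.0832% of all genes at 20 °C and 0.0277% at 27 °C), and 13 had log2 fold changes above 0 at each temperature. Their median log2 fold change was 0.02 at 20 °C (range -0.87 to 1.22) and -0.07 at 27 °C (range -1.01 to 0.72), near those of all genes tested. With the replicate number as a block, 1 of the 26 was called at 20 °C, where 1.48% of all genes were. It was K08D8.6 (log2 fold change 0.71, 47.1 ± 9.31 against 28.9 ± 9.39 CPM, SD, n = 3). Of the 11 other dod and irg genes 8 passed the filter, 3 of these were above 0 at each temperature, and none was called with or without the block. Their lowest and highest log2 fold changes were -0.37 and 1.47 for the 20 °C animals, -0.35 and 1.10 for the heated ones. The highest at both was irg-2, an infection response gene named here after its values were seen, with 1.40, 0.743 and 2.17 CPM in wild type against 5.78, 3.55 and 3.27 CPM in noNSUN at 20 °C (edgeR unadjusted p = 0.0122, adjusted p = 0.924).

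**Figure D2:**
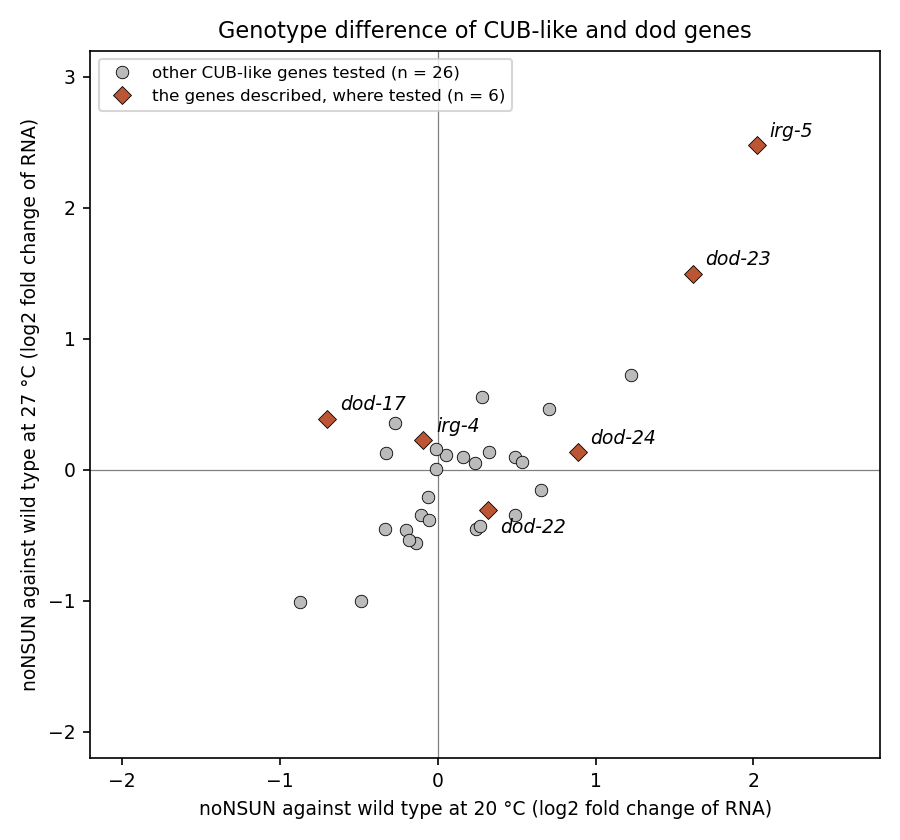
Log2 fold change of RNA between noNSUN and wild type at 20 °C (x axis) and at 27 °C (y axis) for 6 of the genes described (diamonds) and 26 other CUB-like genes (circles). irg-5 and dod-23, chosen for this difference, are at 2.02 and 2.48 and at 1.62 and 1.497, whereas the other CUB-like genes lie around 0, between -1.01 and 1.22.

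The pathway genes known to act on these targets were not called between the genotypes. However, edgeR called only 0.0832% of all genes in that contrast at 20 °C and 0.0277% at 27 °C. At such shares a short list is likely to hold no called gene, so nothing is read from the absence of calls. RNA levels were measured here, not the activity of the cascade. All 8 genes of the p38 cascade list (tir-1, nsy-1, sek-1, pmk-1, the phosphatase vhp-1, nipi-3, tpa-1 and dkf-2) were tested, with log2 fold changes of -0.28 to 0.06 at 20 °C and -0.18 to 0.12 at 27 °C, and edgeR called none. All 12 regulators listed, among them atf-7, elt-2, skn-1, hlh-30, daf-16, pqm-1 and daf-2, were also not called, with log2 fold changes between -0.50 and 0.29 at 20 °C. Of 17 infection-induced genes, such as irg-1, lys-7 and clec-67, 9 of which are also among the CUB-like, dod and irg genes counted above, 15 were tested and none was called; their median was -0.14 at 20 °C and 0.08 at 27 °C. With the replicate number as a block, in a fit that called 1.48% of genes, 2 of the 15 were called at 20 °C, both higher in noNSUN. They were lys-7, a lysozyme (log2 fold change 0.44, 259 ± 22.1 against 190 ± 19.3 CPM, SD, n = 3), and catp-3, a P-type ATPase (0.60, 127 ± 15.6 against 85.2 ± 20.6 CPM). Of 14 genes known to be raised by DAF-16, such as sod-3 and mtl-1, 10 were tested. None was called, all 10 had log2 fold changes below 0 at 20 °C (median -0.21, lowest -1.41), and 5 of 10 did at 27 °C. Such a shift at 20 °C was not particular to this list. Above 0 were 0 of 5 muscle, 1 of 9 intestine, 1 of 6 neuron and 1 of 5 hypodermis markers. All 8 of 8 germline markers were above 0. Wild-type 20 °C replicate 1 stood apart in these markers, and its part in the shift was not tested.

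Heat gave smaller differences than the genotype did for irg-5, and none of the 6 genes tested was called with all 12 libraries and no block by edgeR. In wild type, edgeR called 0 of the 6 genes tested (0.943% of all genes called), with 2 at an unadjusted p under 0.05, irg-5 and dod-23, while DESeq2, which called 1.63% of genes, called 1 of the 6, irg-5. For irg-5 the 27 °C libraries were all below the 20 °C libraries, as for 6.05% of genes, and the log2 fold change was -0.77 (SE 0.21, edgeR adjusted p = 0.132). It was called with the replicate number as a block (log2 fold change -0.75, adjusted p = 0.0224; 4.24% of genes called) and in DESeq2 (adjusted p = 0.0376). It was also called without wild-type 20 °C replicate 1 (-1.003, edgeR adjusted p = 0.00157, in a fit that called 98 genes higher and 147 lower of 10950) and without replicate 1 of each group (-1.06, edgeR adjusted p = 0.000158). dod-23 had a log2 fold change of -0.54 (SE 0.22, edgeR adjusted p = 0.417), and -0.71 (adjusted p = 0.0131) without replicate 1 of each group. In that reduced fit, which called 5.52% of genes, dod-22 was the third gene called, with 1.48 in the upward direction (adjusted p = 0.0327). With all 12 libraries, dod-22 gave 0.66 (95% interval -0.37 to 1.69) and irg-4 -0.90 (95% interval -2.14 to 0.34). irg-4 turned to 0.11 and dod-17 from -0.14 to 0.40 without wild-type 20 °C replicate 1. dod-24 was at 0.03 and dod-17's groups overlapped.

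In noNSUN, edgeR again called 0 of 6 (1.04% of all genes), with 3 at an unadjusted p under 0.05, dod-17, dod-23 and dod-24, and DESeq2 also called 0 (1.53% of all genes), with 2 unadjusted. dod-23 had a log2 fold change of -0.65 (SE 0.20, edgeR adjusted p = 0.215). With the replicate number as a block it was called at the same size (-0.65, adjusted p = 0.0167; 4.10% of genes called). For dod-24 all 27 °C libraries were below the 20 °C libraries, as for 9.36% of genes, with a log2 fold change of -0.72 (SE 0.24, edgeR adjusted p = 0.295; 0.0617 with the block). irg-5 moved least of the 3, by -0.31 (SE 0.18, edgeR adjusted p = 0.689), although its groups did not overlap either. dod-17 had a value in the other direction, 0.95 (SE 0.43, edgeR adjusted p = 0.535), with all 27 °C libraries above the 20 °C ones as for 9.51% of genes. Without replicate 1 of each group, 3 genes were called in noNSUN (5.56% of genes): dod-23 at -0.52 (edgeR adjusted p = 0.0124), dod-24 at -0.64 (adjusted p = 0.0486) and irg-4 at -0.95 (adjusted p = 0.0356).

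**Figure D3:**
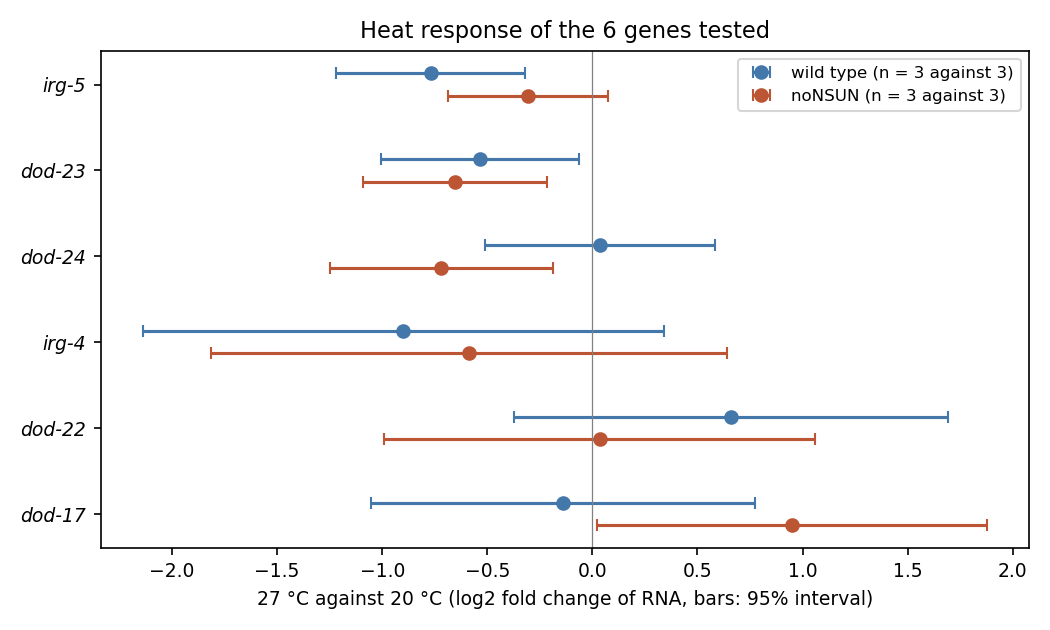
Heat response of RNA, 27 °C against 20 °C, as log2 fold change (x axis) with 95% intervals for the 6 genes tested, in wild type (blue) and noNSUN (red), 3 libraries against 3. The estimates run from -0.90 (irg-4 in wild type) to 0.95 (dod-17 in noNSUN), and edgeR called none with all 12 libraries and no block, whereas DESeq2 called irg-5 in wild type.

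Whether heat acted unequally in the 2 genotypes was tested next, and this difference was not called for any of the 4 genes to which the test applied, in a contrast where edgeR called 0% of genes (0 members and 125 genes at an unadjusted p under 0.05; DESeq2 also called 0). dod-17 had 1.09 (95% interval -0.21 to 2.39), dod-24 -0.75 (95% interval -1.51 to 0.0082), dod-22 -0.62 (95% interval -2.08 to 0.83) and irg-4 0.31 (95% interval -1.43 to 2.06). Without replicate 1 of each group dod-17 was at 0.30, while dod-22 was at -1.51 (edgeR unadjusted p = 0.0134, adjusted p = 0.864) and dod-24 at -0.71 (unadjusted p = 0.0261, adjusted p = 0.868). The genotypes overlapped at 27 °C for dod-24, and did not for irg-5 and dod-23. For irg-5 the corresponding value was 0.46 (SE 0.27), given as a description.

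Among the other CUB-like genes the clearest heat response was that of T05E12.6, which fell in both genotypes. In wild type the libraries kept at 20 °C held 57.6, 42.0 and 47.7 CPM of its RNA and the heated ones 19.6, 14.8 and 15.4 CPM (log2 fold change -1.55, SE 0.17, edgeR adjusted p = 0.000466). In noNSUN the log2 fold change was -1.87 (SE 0.18, edgeR adjusted p = 9.91e-05). C17H12.8, a CUB-like gene that is also in the list of infection-induced genes, fell in noNSUN from 156 ± 22.8 to 90.2 ± 6.23 CPM (SD, n = 3; log2 fold change -0.79, SE 0.14, edgeR adjusted p = 0.0111). These were the only ones of the 26 called for heat without the block, 1 in wild type (0.943% of all genes) and 2 in noNSUN (1.04%). The fit with the replicate number as a block called 4.24% of all genes for heat in wild type and 4.1% in noNSUN. In it 3 of the 26 were called in each genotype: K08D8.3 was lower in wild type (-0.95, adjusted p = 0.0349) and in noNSUN (-1.49, adjusted p = 0.0053), and F53C11.1 was higher in wild type (0.73, adjusted p = 0.0461). mtl-1, a metallothionein raised by DAF-16 and by heat, was the only one of the 10 DAF-16-raised genes called without the block, in noNSUN (log2 fold change 2.45, SE 0.34, edgeR adjusted p = 0.00291). The block also called mtl-1 in wild type (1.43, adjusted p = 0.0051) and dod-3, which was lower in wild type (-1.26, adjusted p = 0.00595) and in noNSUN (-0.91, adjusted p = 0.0477). Among the 15 infection-induced genes the block called 2 for heat in wild type, irg-8 (0.59) and clec-67 (-0.98), and 4 in noNSUN, mul-1 (1.74), lys-7 (-0.43), clec-67 (-0.88) and C17H12.8 (-0.79).

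In ribosome footprints the 7 genes were counted far less deeply. Over the 12 RPF libraries dod-23 had 433 counts, irg-5 107, dod-24 73, dod-21 40, irg-4 18, dod-17 11 and dod-22 3, and only dod-23 passed the filter on low counts. irg-5 had 0, 8 and 1 RPF counts in wild type at 20 °C against 18, 7 and 3 in the mutant, which correspond to 0, 80.3 and 20.9 CPM and to 271, 171 and 118 CPM. The count of 0 allows up to 83.2 CPM in that library. At 27 °C irg-5 had 2, 2 and 1 RPF counts in wild type against 16, 42 and 7 in the mutant, or 26.9, 80.5 and 60.3 CPM against 133, 142 and 301 CPM. The noNSUN libraries were thus above wild type at both temperatures, as for 10.9% and 7.94% of the genes tested, a set without irg-5, whose counts were too low. At 27 °C 3 counts corresponded to 121 and 181 CPM in wild-type replicates 2 and 3, near or above the noNSUN values of 133 and 142 CPM. At 20 °C noNSUN replicate 3 lay on its own floor of 118 CPM. The separation is therefore uncertain, with too few counts for a test.

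dod-23 had at 20 °C 305, 452 and 272 CPM of RPFs in wild type against 935, 953 and 708 CPM in noNSUN. At 27 °C it had 215, 121 and 121 CPM in wild type, from 16, 3 and 2 counts, and 365, 573 and 473 CPM in noNSUN. The genotypes did not overlap at either temperature, with a difference of 2.44-fold at 20 °C (log2 fold change 1.29, SE 0.29) and 2.71-fold at 27 °C (1.44, SE 0.36), given without a test. Nothing is read from this separation, since the choice of dod-23 used its footprint difference as well. Footprints of dod-23 were lower at 27 °C in every library of both genotypes than in any 20 °C library of the same genotype, as for 6.96% of genes in wild type and 11% in noNSUN. The log2 fold change for heat was -1.03 (SE 0.39, edgeR adjusted p = 0.278) in wild type, where 1.29% of 1624 genes were called, and -0.88 (SE 0.27, edgeR adjusted p = 0.0656) in noNSUN, where 3.45% were. DESeq2 called it in neither.

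**Figure D4:**
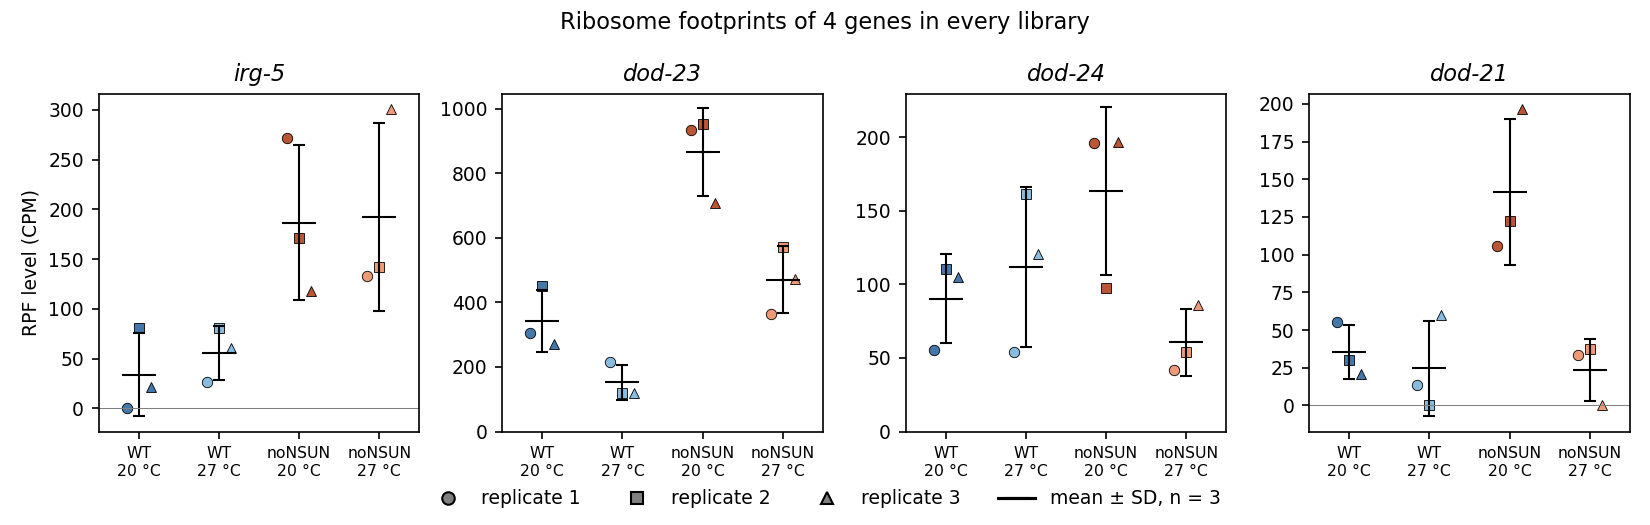
RPF level in CPM (y axis) of irg-5, dod-23, dod-24 and dod-21 in the 4 groups, with 1 point per library, shaped by replicate number, and the mean ± SD of 3 replicates. irg-5, from few counts, and dod-23, chosen partly for this difference, are higher in noNSUN than in wild type at both temperatures. dod-24 overlaps between the genotypes at both temperatures and dod-21 at 27 °C.

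For dod-24 the RPF counts at 20 °C were 2, 11 and 5 in wild type against 13, 4 and 5 in the mutant, and their CPM (55.5, 110 and 105 against 196, 97.7 and 197) overlapped. Heated animals gave 4, 4 and 2 counts against 5, 16 and 2. dod-21 had 2, 3 and 1 RPF counts in wild type against 7, 5 and 5 in the mutant at 20 °C (55.5, 30.1 and 20.9 CPM against 105, 122 and 197 CPM), with the uncertainty from cld-1 named above. Many of these counts lie near the floor of 3, so that a difference smaller than these was not detectable at this depth. irg-4, dod-17 and dod-22 had at most 5, 7 and 2 counts in any RPF library.

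The mean RPF level was 4.16 times the mean RNA level for dod-23, both as CPM per kb in their own assay, 2.03 times for dod-24 and 1.39 times for irg-5, as means over all 12 libraries without a test. irg-4, dod-17 and dod-22, with 18, 11 and 3 RPF counts in all, are given no ratio. dod-21 was far from these with a ratio of 60.8, as was cld-1 with 15.2, and these are the genes whose sequence is shared. Translation efficiency (TE), the RPF change relative to the RNA change, was tested for dod-23, which alone passed the filter in both assays. Its TE was not called for heat in wild type (log2 -0.55, SE 0.47, edgeR adjusted p = 0.865) or in noNSUN (-0.21, SE 0.32, adjusted p = 0.852), in contrasts where edgeR called 0% of 1599 genes, with 96 and 188 genes at an unadjusted p under 0.05. dod-23 was not among those genes, and DESeq2 did not call it either. Between the genotypes the TE value of dod-23 was -0.37 (95% interval -1.10 to 0.36) at 20 °C and -0.03 (95% interval -0.95 to 0.89) at 27 °C.

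Among the 8089 genes that averaged 10 CPM or more, the RNA profile most like that of irg-5 over the 12 libraries was that of dod-23 (Pearson r = 0.956 of log2 CPM), and the reverse held as well. This is a description over libraries that fall into 4 groups, and both genes were chosen for their genotype difference. The next most like irg-5 were col-20 (r = 0.944) and col-8 (0.907), which encode cuticle collagens, ifa-4 (0.884), an intermediate filament gene, and lron-7 (0.875), a leucine-rich repeat gene. For dod-23 they were col-20 (0.944), col-8 (0.939), col-140 (0.894) and col-179 (0.883), all cuticle collagens. At 20 °C col-20 RNA was 49.7 ± 21.1 CPM in wild type against 182 ± 21.1 CPM in noNSUN, and at 27 °C 37.1 ± 13.4 against 117 ± 33.2 CPM (SD, n = 3). Of the other members dod-24 was the most like irg-5 (r = 0.652, rank 160), and irg-4 had r = 0.176 (rank 2714).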

How the data were processed

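The authors deposited raw counts per gene, 1 file per library. For RNA-seq they trimmed reads with Trimmomatic 0.39, removed rRNA reads, aligned with HISAT2 2.1.0 to WBcel235 and counted with HTSeq; the strand setting and annotation release are not given in the sources used here, and assignment of reads shared by dod-21 and cld-1 depends on them. The study's methods describe RPF counts as in-frame, uniquely aligned footprints on each gene's longest coding sequence. Whether this holds for dod-21, with 40 RPF counts although 2.79% of its 28-base stretches occur once, was not checked. The tool names and versions come from the submitters' processing notes and the study's methods.

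Counts were analysed in edgeR 4.0.16 (R 4.3.3) with TMM scaling, the filterByExpr filter (minimum count 10, minimum total 15), a quasi-likelihood fit over the 12 libraries of an assay with 1 coefficient per group, and Benjamini-Hochberg adjustment over all genes tested. "Called" means that this adjusted p was under 0.05 in a two-sided test. TE was the interaction of assay and group over 24 libraries, on genes that passed both filters. CPM and floors use TMM-scaled totals of the genes tested, and 95% intervals the t distribution of the quasi-likelihood test. DESeq2 1.42.0 was an alternative, with RLE size factors, no filter, compared groups only, left-out libraries and a replicate block. The fits were tested on simulated data. Floors and intervals of single libraries cover counting error only.

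The members and the gene lists were chosen with earlier results of these data known. Named genes were the 7 members, from each list the called genes with the largest changes (2 per direction), and the 5 genes most like irg-5 and dod-23 by Pearson r of log2(CPM + 0.5). One listed gene, sodh-1, was not matched by symbol. Motifs were searched in the RefSeq genome sequence of the same build. Groups and replicate numbers come from the sample labels; the methods call the replicates biological, and the labels do not say what a shared number stands for. In RNA the deviations of same-numbered libraries from their group means correlated in all 12 pairs within compared groups (r 0.177 to 0.659, all over 0.1). However, only 8 of 12 RNA libraries correlated best with a library of their own number. Numbers 2 and 3 were not always told apart: wild-type 20 °C replicate 2 had r = 0.414 with wild-type 27 °C replicate 3 and 0.191 with wild-type 27 °C replicate 2. The pairing of RNA libraries by number is thus only partly borne out. The blocked fit is given as an alternative where it changes a call. RNA and RPF libraries of a lysate come from the same animals.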

Additional observations from a re-analysis of the deposited data

How the results depend on the processing

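The genotype log2 fold changes of irg-5 and dod-23 in RNA kept their direction under every alternative run (irg-5 at 20 °C 1.78 to 2.23 and dod-23 1.40 to 1.89 over the fits with libraries left out). The number of genes called was more fragile. For heat in wild-type RNA it was 0, but 1 in DESeq2, 1 with the replicate block and 0 to 3 with libraries left out. For heat in noNSUN RNA it was 0, but 1 with the replicate block and 0 to 3 with libraries left out. It was 1 in the fit of the compared groups only (dod-24, adjusted p = 0.0474, with 98 genes higher and 141 lower called of 10183). For the genotypes at 20 °C it was 0, but 1 with the replicate block and 0 to 1 with libraries left out. Leaving out replicate 1 of each group gave each of those highest counts. In RPFs, heat in noNSUN gave 0, but 1 with the replicate block (dod-23, -0.95, adjusted p = 0.0188, in a fit that called 30 genes higher and 57 lower of 1624). There 3 of 12 same-numbered pairs correlated above 0.1, although 11 of 12 libraries correlated best with their own number. The mean r was 0.065 for same-numbered RPF pairs and -0.033 for the other pairs. The pairing of RPF libraries thus rests on small correlations and is also only partly borne out. For TE a coefficient per lysate changed no call. Summing dod-21 and cld-1 changed no count. The causes of these changes were not tested beyond what the left-out libraries show.

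Genes near 0 changed sign: irg-4 between the genotypes at 20 °C was 0.083 with the replicate block, and dod-22 under heat in noNSUN was -0.0041 without the filter. With libraries left out, irg-4 ran from -1.53 to 0.11 (heat in wild type), -0.42 to 0.91 (genotype, 20 °C), -0.34 to 0.85 (genotype, 27 °C) and -0.70 to 0.94 (difference of the heat response). dod-17 ran from -0.56 to 0.54 for heat in wild type. dod-22 ran from -0.31 to 0.55 (heat in noNSUN), -0.24 to 0.94 (genotype, 20 °C) and -1.51 to 0.0202 (difference of the heat response). dod-24 ran from -0.35 to 0.32 (heat in wild type) and -0.079 to 0.51 (genotype, 27 °C). For the difference of the heat response dod-17 ran from 0.30 to 1.83. The TE difference of the heat response of dod-23 ran from -0.0176 to 0.99. With raw library totals in place of TMM, 1 of 28 RNA levels and 3 of 28 RPF levels moved by more than the SD. With the filter and all libraries, dod-23 alone was tested in RPFs and TE, and up to 3 genes were with libraries left out. Without the filter all 7 were, edgeR called none for heat, and dod-21 and dod-24 joined dod-23 at an unadjusted p under 0.05 for heat in noNSUN RPFs (0.00728 and 0.00999).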

Other observations

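The hypodermis, in which the collagens nearest to irg-5 and dod-23 are made, had markers that did not follow those genes as a list. Of its 6 markers 5 passed the filter in RNA, and edgeR called none between the genotypes (0.0832% of all genes at 20 °C and 0.0277% at 27 °C). At 20 °C 1 of the 5 was above 0 (range -1.98 to 0.70). With the replicate number as a block col-19, an adult cuticle collagen, was higher in noNSUN at 20 °C (log2 fold change 0.72, 117 ± 16.9 against 72.0 ± 22.8 CPM, SD, n = 3), in a fit that called 1.48% of genes. In the same fit dpy-13 and rol-6, also cuticle collagens, were lower (-1.79 and -1.81), each with an SD above its mean in both genotypes.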
